A study of Homo sapiens with 12 samples.

Results

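The luminal transcription factors and estrogen receptor targets described here are 9 genes, measured in 2 breast cancer cell lines grown in synthetic matrices. The set was chosen by name and holds 9 of the 23368 distinct gene symbols in the deposited count table. It comprises the steroid receptors ESR1 and PGR, the transcription factors GATA3, FOXA1, XBP1, SPDEF and TRPS1, and the estrogen receptor targets GREB1 and CA12. All 9 were in the table, and all 9 passed the filter on low counts in each of the 4 comparisons made.

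The study asked how a matrix that carries a mimic of collagen or of laminin is answered by MDA-MB-231 cells, labelled as lacking the estrogen receptor, and by T47D cells, labelled as holding it. Each line was encapsulated in a poly(ethylene glycol) hydrogel with the collagen mimic GFOGER or the laminin mimic IKVAV and kept for 3 days in DMEM with 10% fetal bovine serum, after which RNA was taken from collagenase-degraded gels and sequenced as poly(A) libraries. Libraries numbered 3 for each mimic in the T47D line, and 3 for GFOGER and 2 for IKVAV in the MDA-MB-231 line, whose IKVAV replicate 3 was not analysed here. Each library came from 3 gels pooled, and whether the gels of different libraries were seeded from separate cultures is not given in the sources used here, so p-values measure the spread between these libraries. Both are established lines, from a pleural effusion in the labels of MDA-MB-231 cells,. All groups shared the serum-containing medium, and the sources used here name no hormone treatment and give no hormone levels.

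The estrogen receptor encoded by ESR1 is a transcription factor that is activated by binding its ligand and then acts on enhancers, many of which FOXA1 has opened and GATA3 also occupies. In the mammary gland these factors specify luminal cells, and the progesterone receptor and GREB1 are classical products of the activated receptor. Luminal breast cancers usually keep this program, whereas basal-like and mesenchymal lines usually have little of it.

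Values are read counts on genes, or cpm, the counts relative to a library total that TMM factors correct for differences in composition. Levels of different genes are compared only as cpm per kilobase of the gene length in the table (cpm per kb). Library totals ran from 16703842 to 18452145 in MDA-MB-231 cells with GFOGER, were 15719934 and 16902131 with IKVAV, ran from 16232776 to 17089379 in T47D cells with GFOGER and from 14338238 to 16722473 with IKVAV. In the smallest library 3 counts correspond to 0.209 cpm before the TMM factor is applied. Such limits cover counting error only.

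Of the 11 libraries, 2 stood apart from their replicates. GFOGER replicate 3 of MDA-MB-231 cells differed from replicates 1 and 2 by 15.5 and 17.5 times sampling noise (chi-square per degree of freedom over genes), while replicates 1 and 2 differed from each other by 2.46 times. IKVAV replicate 3 of T47D cells differed from its replicates by 16.9 and 16 times, against 5.26 times between those 2. Where a call or the size of a change rests on either library, the value without it is given beside the result. Another feature of the files separates libraries differently. The RPKM values deposited beside the counts imply a library total of 5191201 to 5774966 in 5 libraries (IKVAV replicate 1 of MDA-MB-231 cells, the 3 GFOGER libraries of T47D cells and their IKVAV replicate 3) and a total several times larger in the other 6.

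The labels of the lines were checked against markers. The 5 luminal epithelial markers EPCAM, KRT8, KRT18, KRT19 and CDH1 summed to between 3819 and 4425 cpm in the T47D libraries and to between 509.7 and 602.7 cpm in the MDA-MB-231 libraries. The 6 basal or mesenchymal markers VIM, KRT5, KRT14, KRT17, CDH2 and ZEB1 summed to between 1578 and 2479 cpm in MDA-MB-231 cells and to between 4.23 and 5.84 cpm in T47D cells. VIM was the most abundant of these in both lines, and KRT5 and KRT14 had at most 1 count in any library. Of 8 markers of leukocytes, endothelium, fibroblasts and hepatocytes, PTPRC, CD3E, VWF, DCN and ALB did not exceed 10 counts per library. COL1A1, a fibroblast collagen, had a mean of 60.2 and 57.6 cpm in T47D cells with GFOGER and IKVAV, against 11.4 and 16.5 cpm in MDA-MB-231 cells. The endothelial marker PECAM1 had 8.88 and 14.4 cpm in MDA-MB-231 cells and 0 counts in every T47D library. The part of other cells in the results below was not tested.

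All 9 genes were higher in T47D cells than in MDA-MB-231 cells, by between 1.77 and 9.11 on the log2 scale (9 of 9 called by edgeR's quasi-likelihood test at a Benjamini-Hochberg adjusted p below 0.05 and a change over 2-fold). Of the 15320 genes tested 46.3% were called, 22.6% as higher in T47D cells and 23.7% as lower. The median change of the 9 genes was 5.81, beside 0.01 over all genes tested. The genes are known luminal markers and were chosen with earlier results of these data known, so the count describes them and is not independent evidence of a direction. In bulk RNA, fewer expressing cells and less RNA per cell cannot be told apart.

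**Figure D1:**
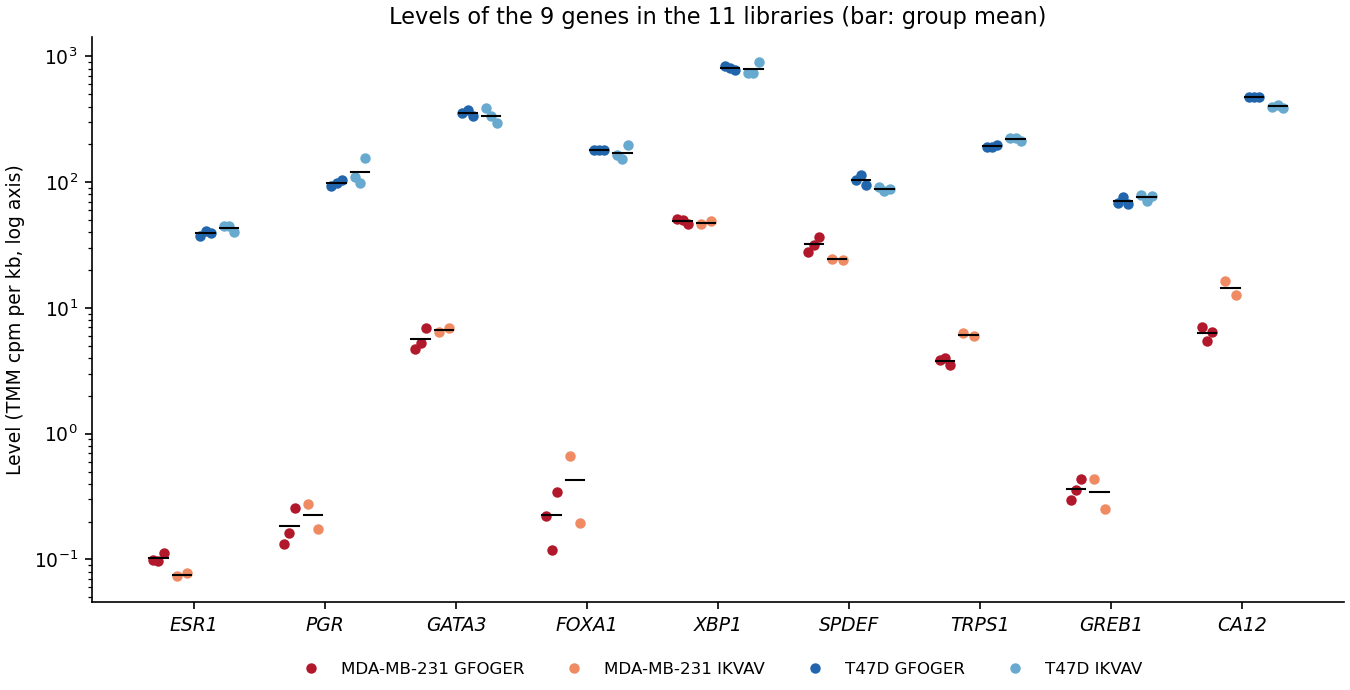
Level of each gene in every library (vertical axis, TMM cpm per kilobase, log scale) by gene (horizontal axis). Each point is 1 library, colors mark the 4 combinations of cell line and mimic, and black bars are group means. T47D libraries lie above MDA-MB-231 libraries for all 9 genes, with the smallest separation for SPDEF and the largest for ESR1, PGR and FOXA1.

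ESR1, the gene of estrogen receptor alpha, lies on chromosome 6 of hg19 from 152011631 to 152424408. It had 4295, 4734 and 4770 counts in T47D cells with GFOGER and 4672, 5140 and 4629 counts with IKVAV. In MDA-MB-231 cells it had 12, 11 and 14 counts with GFOGER and 8 and 9 counts with IKVAV. Every T47D library was thus far above every MDA-MB-231 library, in which the gene had only a few counts above the limit that 3 counts set. On the cpm scale the T47D means were 300.7 ± 19.7 (SD, n = 3) for IKVAV and 273 ± 13 (SD, n = 3) for GFOGER, and the MDA-MB-231 means 0.528 and 0.718 for the same mimics. The difference between the lines was 8.83 ± 0.11 (log2, SE; adjusted p = 4.85e-23, edgeR).

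PGR encodes the progesterone receptor, another ligand-activated transcription factor, and lies on chromosome 11 from 100900355 to 101000544. Its levels in T47D cells were 1225, 1296 and 1352 cpm with GFOGER and 1428, 1284 and 2023 cpm with IKVAV. The last of these, from IKVAV replicate 3, was well above the other 5, which lay close together. In MDA-MB-231 cells PGR had 30, 34 and 60 counts with GFOGER and 56 and 38 counts with IKVAV, and the 2 mimics overlapped. The lines differed by 9.05 ± 0.17 (log2, SE; adjusted p = 1.68e-20, edgeR).

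GATA3, a zinc finger factor needed for luminal differentiation, lies on chromosome 10 from 8096667 to 8117164. It had 1086, 1150.3 and 1036 cpm in T47D cells with GFOGER and 1191, 1027 and 905 cpm with IKVAV. In MDA-MB-231 cells it had 14.6, 16.0 and 21.2 cpm with GFOGER and 19.8 and 21.1 cpm with IKVAV. The mimics overlapped in both lines, and the lines differed by 5.81 ± 0.11 (log2, SE; adjusted p = 2.2e-20, edgeR).

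FOXA1, a forkhead factor that opens chromatin for the estrogen receptor, lies on chromosome 14 from 38059191 to 38064489. T47D cells had 557, 561 and 561 cpm with GFOGER, and 509, 472 and 613 cpm with IKVAV. MDA-MB-231 cells had 12, 6 and 19 counts with GFOGER and 32 and 10 counts with IKVAV. The 3 GFOGER values in T47D cells lay almost on each other and inside the wider range of the IKVAV values, and in MDA-MB-231 cells the first IKVAV library was the highest and the second fell among the GFOGER libraries. FOXA1 had the largest estimate of the difference between the lines of the 9 genes, at 9.11 ± 0.17 (log2, SE; adjusted p = 1.21e-20, edgeR). It was not set apart from PGR, at 9.05 ± 0.17, and was 8.79 without IKVAV replicate 2 and 9.65 without IKVAV replicate 1 of MDA-MB-231 cells.

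XBP1 is regulated by estrogen in breast cells and is also the transcription factor that the unfolded protein response activates by splicing its mRNA. It lies on chromosome 22 from 29190548 to 29196560. Its levels were 1525, 1471 and 1423 cpm with GFOGER and 1346, 1335 and 1633 cpm with IKVAV in T47D cells. In the MDA-MB-231 line they were 93.7, 90.8 and 84.4 cpm with GFOGER and 84.5 and 89.3 cpm with IKVAV, with 1314 to 1635 counts in each library, so the transcript was well measured in both lines. The lines differed by 4.03 ± 0.07 (log2, SE; adjusted p = 4.49e-21, edgeR). The counts are per gene and do not separate spliced from unspliced XBP1.

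SPDEF, an ETS family factor of secretory epithelium, lies on chromosome 6 from 34505579 to 34524110. It had the smallest difference of the 9, at 1.77 ± 0.08 (log2, SE; adjusted p = 1.59e-14, edgeR). T47D cells had 199, 218 and 181 cpm with GFOGER and 174, 163 and 169 cpm with IKVAV. MDA-MB-231 cells had 53.4, 61.0 and 69.9 cpm with GFOGER and 47.1 and 45.9 cpm with IKVAV. The 4 group ranges of SPDEF were all apart, with GFOGER above IKVAV in both lines.

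TRPS1, an atypical GATA family factor that acts mainly as a repressor, lies on chromosome 8 from 116420724 to 116681228. T47D cells had 1908, 1912 and 1990.4 cpm with GFOGER and 2239, 2226 and 2124 cpm with IKVAV. In MDA-MB-231 cells it had 38.3, 39.6 and 35.2 cpm with GFOGER and 63.1 and 59.6 cpm with IKVAV. IKVAV libraries lay above GFOGER libraries in both lines, without overlap. The lines differed by 5.41 ± 0.07 (log2, SE; adjusted p = 4.85e-23, edgeR).

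GREB1, an early estrogen-induced gene whose product works as a cofactor of the receptor, lies on chromosome 2 from 11674242 to 11782912. It had 706, 782 and 698 cpm with GFOGER and 816, 738 and 797 cpm with IKVAV in T47D cells. In the MDA-MB-231 line it had 54, 59 and 81 counts with GFOGER and 70 and 43 counts with IKVAV, and the mimics overlapped in both lines. The lines differed by 7.68 ± 0.12 (log2, SE; adjusted p = 8.55e-22, edgeR). The microRNA gene MIR4429, which overlaps GREB1 in the table, reached at most 10 counts.

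CA12 encodes a membrane-bound carbonic anhydrase, an enzyme that interconverts carbon dioxide and bicarbonate, and lies on chromosome 15 from 63615730 to 63674075. T47D cells had 1884, 1895 and 1879.9 cpm with GFOGER and 1585, 1648 and 1559.9 cpm with IKVAV. MDA-MB-231 cells had 28.2, 21.6 and 25.7 cpm with GFOGER and 65.2 and 50.4 cpm with IKVAV. The mimics did not overlap in either line, and their order was opposite, with GFOGER higher in T47D cells and IKVAV higher in MDA-MB-231 cells. The difference between the lines was 5.50 ± 0.09 (log2, SE; adjusted p = 2.15e-21, edgeR).

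Per kilobase, the order of the 9 genes differed between the lines. In T47D cells XBP1 was highest at 799.7 ± 62.2 cpm per kb (SD, n = 6), followed by CA12 at 438 ± 40.5 and GATA3 at 347 ± 33.1, each above the next without overlap of libraries. TRPS1 (207 cpm per kb), FOXA1 (175), PGR (110.0) and SPDEF (96.2) came next, and the libraries of each overlapped those of its neighbour. GREB1 at 73.2 ± 4.75 and ESR1 at 41.2 ± 3.06 were lowest, so the receptor itself had the lowest level per length of the set in the line labelled as holding it. In MDA-MB-231 cells XBP1 was again highest at 48.7 ± 2.22 cpm per kb (SD, n = 5), and SPDEF followed at 29.0 ± 5.25, above CA12 at 9.61, GATA3 at 6.04 and TRPS1 at 4.72, which overlapped. GREB1, FOXA1 and PGR were between 0.201 and 0.356 cpm per kb and overlapped, and ESR1 was lowest at 0.092 ± 0.016.

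The low counts in MDA-MB-231 cells were set beside those of other genes. As a share of the T47D level, the MDA-MB-231 level was 0.175% for FOXA1, 0.182% for PGR, 0.224% for ESR1, 0.486% for GREB1, 1.74% for GATA3, 2.19% for CA12, 2.28% for TRPS1, 6.08% for XBP1 and 30.1% for SPDEF. Of the 2589 genes with a mean of at least 100 cpm in T47D cells, 62 had a share under 1%, 22 under 0.2% and 3 under 0.1%, and the lowest share was 0.0675%. ESR1, PGR and FOXA1 thus fall in the narrow band at the bottom of these shares, with 29, 18 and 17 genes below them. The opposite comparison had a similar lower end, since of 2711 genes with at least 100 cpm in MDA-MB-231 cells the lowest T47D share was 0.0812%. The source of the few counts of ESR1, PGR and FOXA1 in MDA-MB-231 libraries was not tested.

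**Figure D2:**
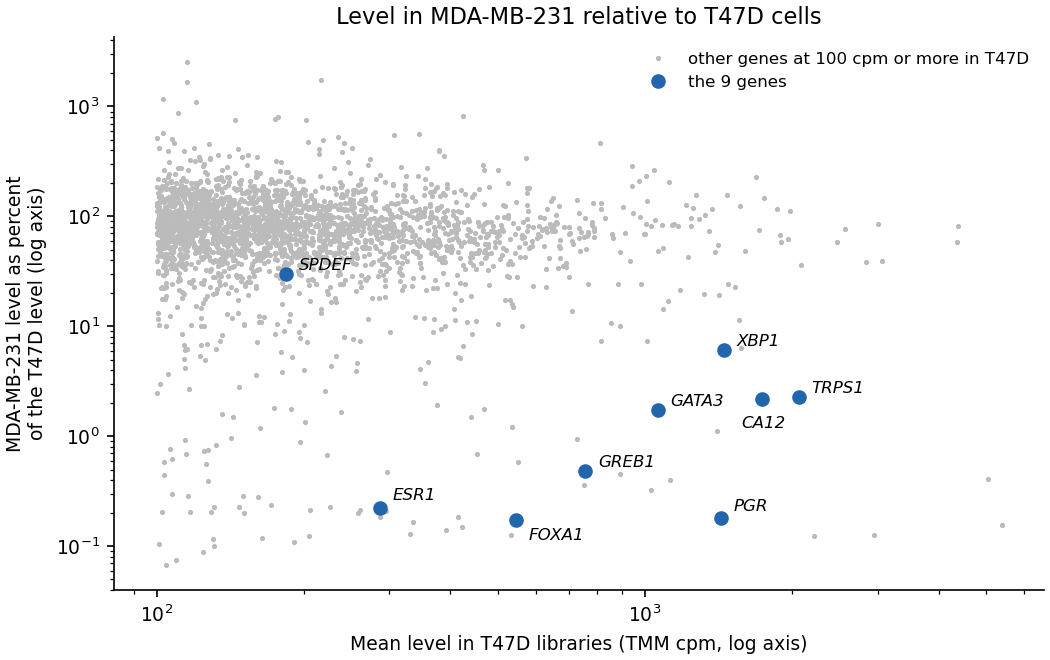
MDA-MB-231 level as a percent of the T47D level (vertical axis, log scale) against the mean T47D level in TMM cpm (horizontal axis, log scale) for the 2589 genes at 100 cpm or more in T47D cells. Grey points are single genes and blue points the 9 genes, of which FOXA1, PGR, ESR1 and GREB1 lie under 0.5% and SPDEF, at 30.1%, lies at the edge of the main cloud.

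Promoter sequences were looked at because the 9 genes differed in one direction between the lines. RefSeq (GRCh38.p14) sequences of the 250 bases before the start were matched for 7 of the 9, ESR1, PGR, GATA3, FOXA1, XBP1, SPDEF and CA12. The sequences of the 4 genes whose RefSeq start lies within 35 bases of the end of the deposited gene model are shown. FOXA1, XBP1 and SPDEF are factors with a high, an intermediate and a small difference between the lines. CA12 is the only one of the 9 whose mimics were in opposite order in the lines without overlap of libraries in either. Its change in T47D cells was not called. Each sequence is the minus strand from 250 to 41 bases before the start, at chr14:37595290-37595499, chr22:28800610-28800819, chr6:34556370-34556579 and chr15:63381887-63382096, and capitals mark a CCAAT box or a GC box (GGGCGG).
FOXA1: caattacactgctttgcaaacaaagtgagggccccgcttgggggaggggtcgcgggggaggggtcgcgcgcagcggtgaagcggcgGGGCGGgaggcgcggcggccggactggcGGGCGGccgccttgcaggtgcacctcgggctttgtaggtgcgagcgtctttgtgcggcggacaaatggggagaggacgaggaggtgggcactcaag
XBP1: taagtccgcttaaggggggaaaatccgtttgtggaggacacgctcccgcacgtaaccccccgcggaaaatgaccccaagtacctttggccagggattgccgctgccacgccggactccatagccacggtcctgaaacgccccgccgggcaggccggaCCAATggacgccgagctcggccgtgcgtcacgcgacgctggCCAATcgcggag
SPDEF: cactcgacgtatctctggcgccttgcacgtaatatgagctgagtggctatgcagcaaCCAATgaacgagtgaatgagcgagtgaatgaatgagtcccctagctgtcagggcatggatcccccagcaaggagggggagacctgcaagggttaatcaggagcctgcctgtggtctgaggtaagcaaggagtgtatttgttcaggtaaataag
CA12: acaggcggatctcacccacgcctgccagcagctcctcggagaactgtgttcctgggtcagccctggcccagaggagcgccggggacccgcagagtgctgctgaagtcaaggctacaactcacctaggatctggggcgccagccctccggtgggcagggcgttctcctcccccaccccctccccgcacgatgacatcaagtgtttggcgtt

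In all, 8 short motifs were searched on both strands of the 250 bases, and the same was done for 35116 RefSeq promoters. The estrogen response element (GGTCA, any 3 bases, TGACC) was in 0 of the 7 and in 0.0399% of all promoters, the single arm AGGTCA in 0 and 12.1%, the forkhead site TGTTTAC in 0 and 2.98%, the GATA site AGATAA in 0 and 9.17%, and the unfolded protein response element TGACGTGG in 0 and 0.612%. The ETS site CCGGAA was in the promoter of GATA3 and in 14.5% of all promoters. The CCAAT box (CCAAT) was in those of ESR1, XBP1 and SPDEF and in 32% of all, and the GC box in those of PGR and FOXA1 and in 42.6% of all. The windows of ESR1 and GATA3 lie far outside the gene models in which reads were counted, and that of PGR starts 736 bases inside its model, and which start these cells use was not tested. A match is a description of letters and not a site, and estrogen receptor and FOXA1 are known to bind largely at distant enhancers, which this window does not hold.

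In T47D cells, 0 of the 9 genes were called between GFOGER and IKVAV, where 0.022% of 13642 genes tested were (3 genes, edgeR), and 0 of the 9 passed the adjusted p alone, as 0.044% of all did. Of the 9, 4 had an unadjusted p below 0.05 (CA12, TRPS1, SPDEF and PGR), as had 1531 of the 13642, and DESeq2 called 0 of the 9 and 8 genes in all. The change from IKVAV to GFOGER was 0.22 for CA12 (95% interval 0.07 to 0.37; adjusted p = 0.290), 0.22 for SPDEF (0.04 to 0.40; adjusted p = 0.352), -0.20 for TRPS1 (-0.36 to -0.04; adjusted p = 0.334) and -0.30 for PGR (-0.58 to -0.03; adjusted p = 0.393), all log2 values from edgeR. ESR1 was at -0.16 (-0.33 to 0.02; adjusted p = 0.485) and GREB1 at -0.12 (-0.29 to 0.04; adjusted p = 0.588). FOXA1, GATA3 and XBP1 were at 0.06, 0.05 and 0.02, with adjusted p of 0.857, 0.900 and 0.960. All 9 intervals lay inside a 2-fold change in either direction. Libraries of the mimics did not overlap for 3 of the 9 genes, SPDEF, TRPS1 and CA12, and for 16% of all genes tested.

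The value of PGR rested on 1 library. Its level in IKVAV replicate 3 was 0.518 above the mean of the 6 T47D libraries on the log2 scale, and without that library the change was -0.10 (adjusted p = 0.447, edgeR). When the 2 sets of RPKM totals were entered as a term, so that IKVAV replicate 3 was the only IKVAV library in the set of the GFOGER libraries, the change of PGR was -0.64 (adjusted p = 1.91e-04, edgeR), still under 2-fold. In the same fit GATA3 was at 0.28 and ESR1 at -0.02, and neither passed the test. In this library GATA3 was the lowest of the 6, and FOXA1 and XBP1 were the highest of the 6. The coefficient of variation over the 6 T47D libraries was 20.7% for PGR, 11.3% for SPDEF and 6.49% to 9.53% for the other 7. Without this library TRPS1 was at -0.24 with an adjusted p of 0.0334 (edgeR), under 2-fold, GATA3 turned to -0.06, FOXA1 and XBP1 were at 0.16 and 0.10, and 0 of the 9 were called, beside 94 of all genes in place of 3. What sets this library apart was not tested.

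**Figure D3:**
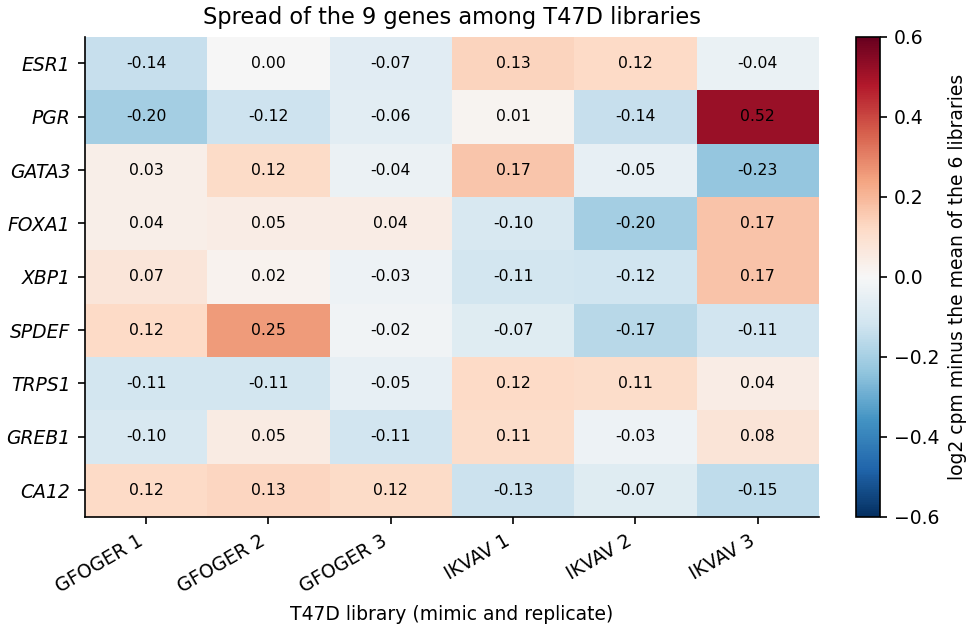
Log2 cpm of each gene (rows) in each T47D library (columns, mimic and replicate) minus the gene's mean over the 6 libraries, as color and number. PGR in IKVAV replicate 3 stands out at 0.52, and CA12, TRPS1 and SPDEF separate the mimics by small amounts.

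In MDA-MB-231 cells, 1 of the 9 genes was called between the mimics, CA12, which was lower with GFOGER by 1.21 on the log2 scale. Of the 14092 genes tested, 9.57% were called, 3.12% higher and 6.46% lower with GFOGER. The mean of CA12 was 57.8 ± 10.4 cpm (SD, n = 2) for IKVAV and 25.2 ± 3.32 cpm (SD, n = 3) for GFOGER, and the change of -1.21 ± 0.14 (log2, SE; 95% interval -1.50 to -0.92; adjusted p = 3.92e-06, edgeR) lay near the 2-fold limit. It was called in every fit that left out 1 library, with values from -1.38 to -1.01. Both ends of this range came from leaving out an IKVAV library, where the remaining one was assumed to vary like the GFOGER libraries. CA12 was not called when the test itself asked for more than a 2-fold change (adjusted p = 0.452, edgeR).

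TRPS1 and SPDEF changed in MDA-MB-231 cells by less than 2-fold. TRPS1 was lower with GFOGER, at -0.71 ± 0.11 (log2, SE; adjusted p = 8.17e-05, edgeR), and SPDEF was higher, at 0.39 ± 0.12 (log2, SE; adjusted p = 0.0175, edgeR). With CA12 they made 3 of 9 genes below the adjusted p of 0.05 alone, beside 42.9% of all genes tested. Libraries of the mimics did not overlap for 4 of the 9, namely ESR1, SPDEF, TRPS1 and CA12, beside 63% of all genes tested. The other 6 genes did not pass the test. GATA3 was at -0.25 (adjusted p = 0.220), FOXA1 at -0.88 (adjusted p = 0.204), PGR at -0.30 (adjusted p = 0.504), ESR1 at 0.43 (adjusted p = 0.528), GREB1 at 0.08 (adjusted p = 0.839) and XBP1 at 0.03 (adjusted p = 0.815), from edgeR. Several of these values rested on GFOGER replicate 3. Without it GATA3 was at -0.43 and passed the adjusted p (0.00411, edgeR) under 2-fold, PGR was at -0.63, XBP1 at 0.07 and GREB1 at -0.08, none of these 3 past the test.

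Intervals in MDA-MB-231 cells differed widely between genes. For XBP1, with 1314 to 1635 counts per library, the 95% interval ran from -0.18 to 0.24. For ESR1, with 8 to 14 counts, it ran from -0.65 to 1.51, and for FOXA1, with 6 to 32 counts, from -2.03 to 0.27, so that both held changes of over 2-fold as well as no change. FOXA1 rested on single libraries in both directions. Its change was -1.30 (adjusted p = 0.0461, edgeR) without GFOGER replicate 3, -1.52 without IKVAV replicate 2 and 0.24 without IKVAV replicate 1.

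**Figure D4:**
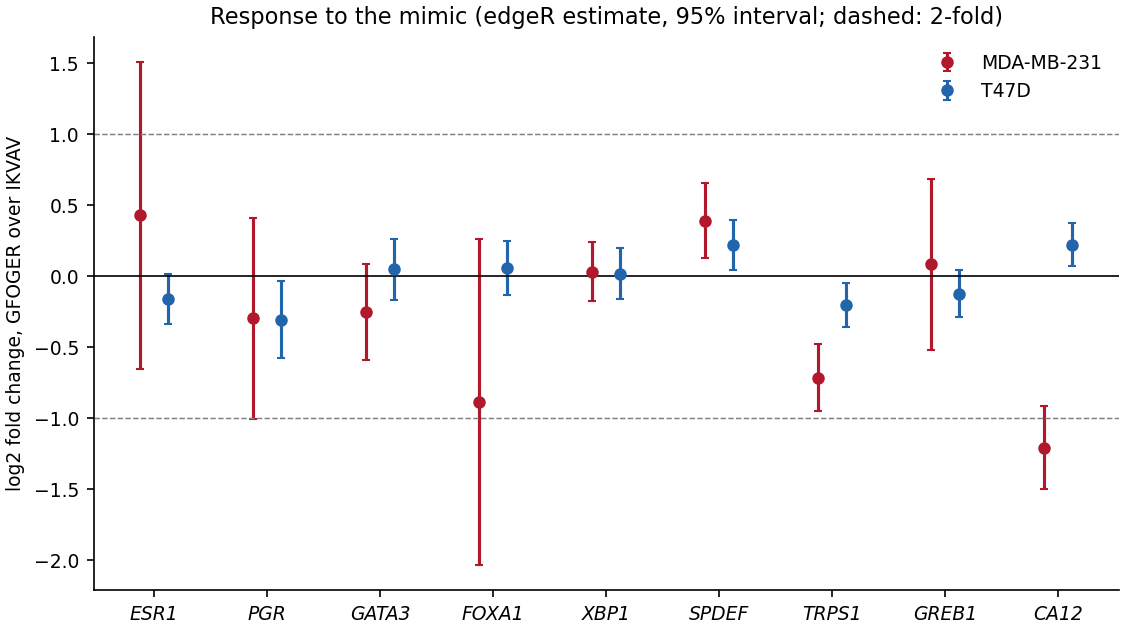
Log2 fold change of GFOGER over IKVAV (vertical axis) for each gene in MDA-MB-231 cells (red) and T47D cells (blue). Points are edgeR estimates, bars are 95% intervals, and dashed lines mark 2-fold. CA12 lies at -1.21 in MDA-MB-231 cells and at 0.22 in T47D cells, and intervals are widest for ESR1 and FOXA1 in MDA-MB-231 cells.

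Whether the response to the mimic differed between the lines was tested as an interaction in a fit of all 11 libraries. Of the 9 genes, 1 was called, CA12, beside 6.42% of 15320 genes tested. The change of CA12 from IKVAV to GFOGER was higher in T47D cells than in MDA-MB-231 cells by 1.42 ± 0.14 (log2, SE; 95% interval 1.12 to 1.72; adjusted p = 1.39e-06, edgeR), and values ran from 1.23 to 1.61 over the alternatives. When the test asked for a difference over 2-fold, the adjusted p was 0.0872. TRPS1 differed by 0.51 ± 0.11 (log2, SE; adjusted p = 0.00254, edgeR), under 2-fold. The interaction of FOXA1 was 0.92 (95% interval -0.03 to 1.86; adjusted p = 0.161, edgeR), and it turned on single MDA-MB-231 libraries, at 1.58 (adjusted p = 0.0171) without IKVAV replicate 2 and -0.19 (adjusted p = 0.865) without IKVAV replicate 1. Without GFOGER replicate 3 of MDA-MB-231 cells the interaction of GATA3 was 0.48 in place of 0.29 and passed the adjusted p (0.0274, edgeR), that of SPDEF was -0.06 in place of -0.18, and that of GREB1 -0.04 in place of -0.22. Without IKVAV replicate 3 of T47D cells that of GATA3 was 0.19. The interaction of PGR turned from -0.02 to 0.32 and 0.18 without these libraries in the same order, and that of XBP1 from -0.02 to 0.07 without the T47D library. With the set of RPKM totals as a term that of PGR was -0.68 (adjusted p = 0.11, edgeR). The remaining 6 genes had adjusted p between 0.283 and 0.991. At the adjusted p alone, 2 of the 9 passed, beside 21% of all genes tested.

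Other genes of the pathway were described from lists that hold none of the 9. Of 30 other estrogen targets, 29 were tested between the lines, 22 were higher in T47D cells and 3 lower, with a median of 2.65. The 4 with the largest change were the chemokine CXCL12 (9.57), OLFM1 (9.36), the secreted glycoprotein STC2 (8.15) and the scaffold protein PDZK1 (7.42), all log2. STC2 had a mean of 735 and 766 cpm in T47D cells with GFOGER and IKVAV, and 2.96 and 2.28 cpm in MDA-MB-231 cells. In shares of the list, the higher calls made up a larger part than the 22.6% over all genes. The lists were written with earlier results known, and no test of a list was made.

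Of 25 other luminal transcription factors, 23 were tested, 17 were higher in T47D cells and 3 lower, beside 22.6% and 23.7% of all genes, and the median was 3.07. ELF5, an ETS factor of the luminal progenitor and alveolar lineage, had 178 and 205 cpm in T47D cells with GFOGER and IKVAV and between 2 and 7 counts in each MDA-MB-231 library (log2 difference 9.77). The epithelial factor GRHL2 differed by 8.86. Among 22 basal and mesenchymal transcription factors 18 were tested, 2 were higher in T47D cells and 12 lower, against the same shares of all genes, with a median of -6.69. The 2 higher were TWIST1 (7.91) and TEAD4 (1.67), while among the lower ETS1 was at -9.13, HMGA2 at -8.87 and ZEB1 at -8.86. The largest estimate was that of FOXQ1, which had 1 count in each T47D library and 949 to 1607 counts in MDA-MB-231 libraries.

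The nuclear receptors as a group did not share the direction of ESR1 and PGR. Of 21 tested, 4 were higher in T47D cells and 8 lower, beside 22.6% and 23.7% of all genes, and the median was -0.21. ESR2, the gene of estrogen receptor beta, had between 16 and 56 counts in every library of both lines. Its difference was -0.70 (adjusted p = 0.00435, edgeR), lower in T47D cells and under 2-fold. Receptor coregulators, which bind many receptors, were closer together, with 4 of 24 tested higher in T47D cells and 0 lower, against the same shares of all genes, and a median of -0.19, so that the calls and the median differed in sign. These 4 were NRIP1 (2.28), NCOA2 (1.66), PELP1 (1.08) and DDX17 (1.06).

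Of the targets of XBP1 in the unfolded protein response 22 were tested between the lines, and 3 were higher and 6 lower in T47D cells, beside 22.6% and 23.7% of all genes, with a median of -0.52. SEC24D, a coat protein of vesicles leaving the endoplasmic reticulum, was at -1.80 and the protein disulfide isomerase PDIA4 at -1.22, while the chaperone cofactors DNAJB11 and SDF2L1 were at 1.46 and 1.40. Among other carbonic anhydrases, 7 of 14 were tested, 2 were higher and 4 lower in T47D cells, against the same shares, with a median of -1.42. CA8 had 392 to 698 counts in T47D libraries and 0 to 7 in MDA-MB-231 libraries, and CA13 was at -2.97.

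**Figure D5:**
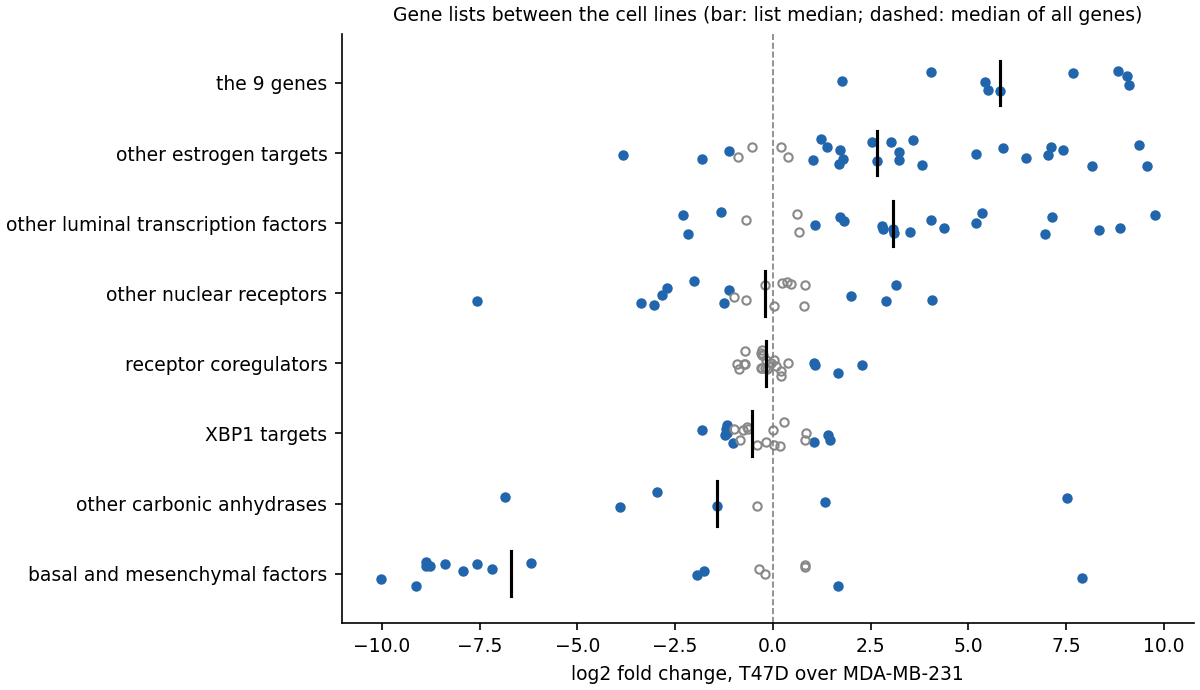
Log2 fold change of T47D over MDA-MB-231 cells (horizontal axis) for the genes tested of each list (rows). Points are genes, filled where called and open where not, black bars are list medians, and the dashed line is the median of all genes tested. The 9 genes have a median of 5.81, other luminal factors 3.07, other estrogen targets 2.65, and basal and mesenchymal factors -6.69.

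Between the mimics in T47D cells, 0 genes were called in each of the 10 lists (edgeR), beside 0.022% of all genes tested. An unadjusted p below 0.05 was seen for 8 of 29 estrogen targets and 9 of 23 luminal factors, beside 1531 of all 13642. In MDA-MB-231 cells 5 of 24 other estrogen targets were called, all lower with GFOGER, beside 6.46% of all genes called lower and 3.12% higher, with a list median of -0.32 beside 0.0039 over all genes. They were WISP2 (-2.74), MYB (-1.95), RERG (-1.90), NPY1R (-1.61) and TSKU (-1.02), and WISP2 had 3 or 4 counts per library with GFOGER and 22 and 25 with IKVAV. Of 18 other luminal factors, 5 were called, all lower with GFOGER, beside the same shares, among them ELF3 (-2.06), MYB, which is in both lists, IRX5 (-1.52) and IRX3 (-1.51). ELF3, an epithelial ETS factor, had a mean of 27.3 ± 3.78 cpm (SD, n = 2) for IKVAV and 6.60 ± 0.92 cpm (SD, n = 3) for GFOGER. The median of the luminal factors was -0.09.

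Of 21 nuclear receptors tested in MDA-MB-231 cells, 1 was called higher and 2 lower with GFOGER, beside 3.12% and 6.46% of all genes. NR2F1, an orphan receptor, was at -1.30, and PPARG, a receptor for fatty acid ligands, at 1.58 (log2). Of 17 basal and mesenchymal factors 3 were called higher and 2 lower with GFOGER, against the same shares of all genes. TCF4 (2.38) and TP63 (-1.92) led them, both with few counts. Coregulators, XBP1 targets and other carbonic anhydrases had 0 calls in MDA-MB-231 cells (edgeR), beside 9.57% of all genes called. In these lists, in the same order, 16 of 24, 8 of 22 and 1 of 6 had an unadjusted p below 0.05, beside 7079 of the 14092 genes tested. Of the coregulators 12 passed the adjusted p alone in the lower direction and 1 in the higher, beside 3019 and 3021 of the 14092 genes tested, the largest being MLL3 (-0.84) and NCOA3 (-0.75). In the same libraries the summed basal or mesenchymal markers, of which VIM was the most abundant, were 2390 to 2479 cpm with GFOGER and 1578 and 1619 cpm with IKVAV. They did not move together. Of the 4 tested, VIM (0.67), CDH2 (1.00, adjusted p = 0.0936) and KRT17 (2.72) were higher with GFOGER, and ZEB1 was lower (-0.40, adjusted p = 0.00246, edgeR). The 8 markers of other cells summed to 20.4 to 25.04 cpm with GFOGER and to 34.1 and 34.6 cpm with IKVAV, and the 3 that were tested were at -1.14 (LUM, called), -0.70 (PECAM1) and -0.54 (COL1A1). The luminal marker CDH1 was at -0.97 (adjusted p = 0.00594, edgeR), and the 5 luminal markers summed to 509.7 to 602.7 cpm with GFOGER and to 554 and 573 cpm with IKVAV. The part of these markers in the changes was not tested.

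The interaction was called for 2 of 21 nuclear receptors, both higher in T47D cells and NR2F1 (1.63) among them, for 5 of 29 other estrogen targets, all higher in T47D cells, and for 5 higher and 2 lower of 23 luminal factors. RERG (1.94), WISP2 (1.92), MYB (1.88), TSKU (1.38) and NPY1R were the 5 estrogen targets. All values are log2 differences between the response in T47D cells and that in MDA-MB-231 cells, and over all genes 4.17% were called higher and 2.25% lower.

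Genes with a similar pattern were sought over the 11 libraries among the 15311 other genes tested. Pearson's r of log2 cpm with the mean z score of the 9 genes was highest for VAV3 (0.9996), CRABP2 (0.9996), TMPRSS13 (0.9995), ENG (0.9994) and SERPINA6 (0.9994). The libraries fall into 2 cell lines, so any gene that separates the lines has a high r, and 735 genes had an r over 0.99. By distance over the 4 group means of log2 cpm per kb, the genes nearest to ESR1 were KRT23 (0.32), SLC7A8 (0.44), GYLTL1B (0.51), ABCA12 (0.58) and SOWAHA (0.59). KRT23, a keratin, had -3.07 and -3.55 in MDA-MB-231 cells with GFOGER and IKVAV and 5.56 in T47D cells with each mimic, beside -3.06, -3.43, 5.29 and 5.43 for ESR1 in the same order. PGR and GREB1 were at distances of 2.45 and 2.75 from ESR1, and XBP1, the farthest of the 9, at 13.9.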

How the data were processed

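The authors trimmed reads, aligned them to hg19 and counted them on genes, per the submitters' processing notes with Trim Galore 0.4.4, TopHat2 2.1.0, HTSeq 0.6.1p1, bedtools 2.17, SAMtools 1.4, FastQC and edgeR 3.16.5. The kit is stranded, and the strand setting of the counting is not given in the sources used here. For every gene the deposited table gives a whole-number read count per library, not normalized, and an RPKM value that the authors made from the count, the gene length and a library total. Counts were used for all tests, deposited gene lengths for cpm per kb, and RPKM only for the totals they imply, whose origin is not stated. Of 24656 entries, 1288 repeat a symbol, and the entry on a whole chromosome with most counts was kept.

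Tests were run with edgeR 4.0.16, DESeq2 1.42.0 and limma 3.58.1 under R 4.3.3. Counts were scaled by TMM, filtered with filterByExpr and tested with edgeR's quasi-likelihood test on the whole table, with Benjamini-Hochberg adjustment over all genes tested. A gene was called at an adjusted p below 0.05 and a change over 2-fold. Mimics were compared within each line, and lines and the interaction in a fit of the 4 groups (11 libraries). Prior count for log2 cpm was 2. The test was checked on simulated counts, where it recovered 200 of 200 genes given a log2 effect of 2 among 13544 genes for T47D cells and 200 of 200 among 13921 for MDA-MB-231 cells, with 0 false calls in both, and 200 of 200 among 14845 for the lines and for the interaction, with 1 and 0 false calls. The changed genes had means above 2 cpm, all genes shared one spread, and no simulated library stood apart. Smaller changes, genes with few counts and deviant libraries were therefore not checked. Alternatives were DESeq2, other scalings and filters, the replicate number as a block, the adjusted p alone, a 2-fold threshold inside the test, voom with sample weights, the set of RPKM totals as a term, leaving out each library, all groups in one fit and, chosen after seeing the data, robust dispersion estimates.

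The 9 genes and the 10 lists were chosen with earlier results of these data known. Named are the 9 genes, up to 4 genes of each list with the largest change in the comparison described, ESR2, and the 5 genes most like the set or nearest to ESR1. NPY1R, TSKU, IRX3, TWIST1 and TEAD4 as further called genes, MIR4429, PDIA4 and the markers are named beside this rule after their values were seen. Some genes that the rule covers are not reported here.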

Additional observations from a re-analysis of the deposited data

Results flagged for a closer look

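For 2 of the 9 genes the response to the mimic differed between the cell lines by the test of the difference itself at the adjusted p alone, as it did for 21% of the 15320 genes tested. For CA12 the log2 interaction was 1.42 (adjusted p = 1.39e-06, edgeR): GFOGER libraries were higher than IKVAV libraries in T47D cells, in 3 of 3 against 3 of 3 libraries, by a change that was not called on its own, and lower in MDA-MB-231 cells, in 3 of 3 against 2 of 2. For TRPS1 it was 0.51 (adjusted p = 0.00254, edgeR), with GFOGER below IKVAV in both lines and further below in MDA-MB-231 cells. With 2 or 3 libraries per group, single values were not tested as outliers within a group.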

How the results depend on the processing

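The 9 differences between the cell lines kept their direction and their call in all 196 values from the alternatives, and 7 to 9 genes were called, since ESR1 and FOXA1 were not tested when at least 10 counts were asked of every library. In T47D cells 0 of the 9 were called in any of the 18 alternatives, although with sample weights ESR1 (-0.24), SPDEF, TRPS1 and CA12 passed the adjusted p by changes under 2-fold. In MDA-MB-231 cells the 9 genes gave 1 call, against 0 with the 2-fold threshold inside the test, 3 with the adjusted p alone and 1 to 2 when each library was left out, and the interaction gave 1, against 0, 2 and 1 to 2.

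Changes that reversed were not called in the reported fit. All were small except those of FOXA1 in MDA-MB-231 cells and in the interaction, which lay near 2-fold and were called in 1 alternative each, without GFOGER replicate 3 (-1.30) and without IKVAV replicate 2 (1.58) of MDA-MB-231 cells. With the set of RPKM totals as a term, FOXA1 and XBP1 were at -0.13 and -0.14 in T47D cells, where GATA3 and ESR1 moved to 0.28 and -0.02 without turning. With this term PGR, FOXA1 and XBP1 were at 0.063, 0.24 and -0.0061 in MDA-MB-231 cells. There IKVAV replicate 1 is the only library of the low set, so this fit compares GFOGER with IKVAV replicate 2 alone. It is nearly the same as the fit without IKVAV replicate 1 and not a separate check. With sample weights GATA3 was at -0.0031 in T47D cells, GREB1 at -0.019 in MDA-MB-231 cells, and the interactions of PGR and XBP1 at 0.35 and 0.034. Interactions of PGR were 0.0012 with DESeq2, 0.0076 with upper-quartile scaling and 0.018 with library size alone, and those of XBP1 0.0057 and 0.015 with the latter 2. Over the fits that left out each library, values ran from -0.055 to 0.16 for GATA3, -0.017 to 0.16 for FOXA1 and -0.029 to 0.10 for XBP1 in T47D cells, from -0.63 to 0.067 for PGR, -1.52 to 0.24 for FOXA1, -0.0018 to 0.076 for XBP1 and -0.27 to 0.54 for GREB1 in MDA-MB-231 cells, and from -0.38 to 0.32 for PGR, -0.19 to 1.58 for FOXA1, -0.062 to 0.066 for XBP1 and -0.66 to 0.15 for GREB1 in the interaction.

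The replicate numbers were not taken as pairs, since deviations of same-numbered libraries had correlations between -0.184 and 0.0425 over 15 pairs. In MDA-MB-231 cells GFOGER replicate 3 has no IKVAV library of the same number, so the block takes it out of the comparison of the mimics. This fit is thus close to leaving that library out, where GATA3 was also at -0.43. With the replicate block GREB1 was at -0.058 and GATA3 at -0.43 in MDA-MB-231 cells. There 4 of the 9 passed the adjusted p alone, 1 higher and 3 lower with GFOGER, beside 4130 higher and 3948 lower of the 14092 genes tested. Under the block the interaction of PGR was 0.16, and 5 genes in all were called in T47D cells in place of 3.

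Counts over all genes moved by over 1.5 times in some fits. In T47D cells they were 8 with DESeq2, 20 with no filter, 0 with the 2-fold threshold inside the test, 6 with the adjusted p alone, 146 with sample weights, 49 with the RPKM totals, 5 with all groups in one fit and 0 to 94 without each library, the highest without IKVAV replicate 3. In MDA-MB-231 cells they were 403 and 6040 with the threshold inside the test and the adjusted p alone, and in the interaction 132 and 3222. Between the lines they were 4091 with at least 10 counts in every library and 12947 with the adjusted p alone. Upper-quartile scaling and library size alone moved the median difference of all genes between the lines from 0.01 to 0.10 and 0.09. The causes were not tested. In MDA-MB-231 cells single libraries held 6 to 81 counts of ESR1, PGR, FOXA1 and GREB1.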
